A study of Mus musculus with 8 samples.

Results

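Interleukins are secreted proteins through which immune and tissue cells signal to each other, and each acts on cells that carry the matching receptor chains. The genes described here are all rows of the expression table whose symbol starts with Il followed by a digit, which gave 83 of 55679 genes. By known role, these were 37 ligands, 41 receptor chains, 3 inhibitors (Il1rn, Il18bp and Il1f5), 1 enzyme (Il4i1) and 1 antisense RNA (Il1bos). Symbols were taken as the table gives them, so a receptor chain or ligand with another kind of name was not a member and is described apart.

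RNA-seq was performed on 8 left ventricle samples of male wild-type C57BL/6J mice, whose age was not given in the sources used here. The 4 control samples were from mice given saline for 7 days, and the 4 ANG II samples from mice given angiotensin II, the pressor peptide of the renin-angiotensin system, at 1500 ng/kg/min for 7 days from a pump under the skin. The blood was washed out of the hearts before the ventricle was taken, and mRNA was selected on oligo(dT) beads. The comparison asks which interleukin and receptor genes differed between hypertrophic and control ventricles.

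The IL-1 family (Il1b, Il18, Il33) signals through paired chains with a shared adaptor, and its members are known as early messengers of injury. Il6 and its relatives act through the shared chain Il6st (gp130), which heart muscle cells carry. Most of the remaining interleukins use the shared gamma chain (Il2rg), the shared beta chain (Csf2rb), the Il10 receptor pair or the Il17 receptors, and the corresponding cytokine receptors signal through JAK kinases and STAT factors, except those of the IL-17 family.

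ANG II ventricles held more mRNA of 15 interleukin receptor chains and of a small set of ligands: Il33, Il34, Il6, Il18 and, with overlapping groups, Il1b. Il15, the most abundant ligand mRNA, was lower, also with overlapping groups. The Il1b and Il15 calls were each lost when certain single libraries were left out. Levels are in FPKM, a fragment count scaled by transcript length and by the size of the library. The test took in 48 of the 83, those whose mean reached 0.1 FPKM: 16 ligands, 30 receptors and 2 inhibitors. A gene was called when its limma p-value, adjusted by the Benjamini-Hochberg method over 19364 genes, was under 0.05 and its log2 fold change of FPKM + 1 was beyond 0.5 in either direction. Of the 48, 21 were called higher and 1 was called lower in ANG II. Over all genes tested, 15.4% were called, 14% as higher and 1.41% as lower. All 22 called members had a mean of at least 1 FPKM in a group. The median log2 fold change was 0.38 over the 48 and 0.15 over all genes tested. The count of called members was lower under each of 3 rescalings of the libraries. It was 14 at the least, under quantile normalization, where 12.4% of all genes were called.

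The cells behind a change could not be seen in whole tissue: fewer cells of a type and less RNA per cell cannot be told apart. Heart muscle markers summed to 16320 to 17044 FPKM in the control libraries and to 12625 to 14047 FPKM in ANG II, with 1 of 4 called lower (Myh6), so the tissue label held in all 8 libraries, although the extraction protocol in the labels speaks of a cell type that is not heart. Depth, read from the steps of the values, was 14455918 to 16565101 fragments per library. Macrophage markers summed to 219 to 285 FPKM in control and to 483 to 681 FPKM in ANG II, and 6 of 6 were called higher. Fibroblast markers summed to 302 to 418 and 1081 to 1216 FPKM, and 4 of 4 were called higher. T cell markers summed to 1.73 to 6.14 and 4.57 to 9.09 FPKM with 1 of 5 called, neutrophil markers to 2.57 to 5.66 and 7.58 to 19.8 FPKM with 3 of 3 tested called and the defining Ly6g near 0, and dendritic cell markers to 0.415 to 0.865 and 2.14 to 3.49 FPKM with 2 of 3 called. NK cell markers summed to 0.187 to 2.86 and 2.64 to 4.88 FPKM with 1 of 2 tested called, and eosinophil markers to 0 to 0.401 and 0 to 0.372 FPKM, with Epx at 0. Endothelial markers summed to 267 to 285 and 308 to 359 FPKM with 1 of 3 called higher (Pecam1), and 1 of 3 smooth muscle markers was called higher (Cnn1). No B cell, mesothelial or adipocyte marker was called by limma or had an unadjusted p under 0.05. Control 1 held the highest control sum of macrophage, T cell, NK cell and neutrophil markers. The part of these cells in the results below was not tested.

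Sequence before the start of 4 called genes is shown: 3 whose window held a match to a letter pattern described here, and Il33, which had the highest log2 fold change. Each window holds the 250 bases before a RefSeq transcript start (GRCm38.p6), written 5′ to 3′ along the gene's strand. Il6 is on the plus strand (window chr5:30012864-30013113), as are Il1rn (chr2:24336610-24336859) and both starts of Il33 (chr19:29924863-29925112 and chr19:29945540-29945789). Il7r is on the minus strand (chr15:9529877-9530126). Capitals mark matches to the letters GGGA, any base and TTTCC in a row (kappaB), TGANTCA (AP-1) or TTCNNNGAA (STAT), searched on both strands.
Il6: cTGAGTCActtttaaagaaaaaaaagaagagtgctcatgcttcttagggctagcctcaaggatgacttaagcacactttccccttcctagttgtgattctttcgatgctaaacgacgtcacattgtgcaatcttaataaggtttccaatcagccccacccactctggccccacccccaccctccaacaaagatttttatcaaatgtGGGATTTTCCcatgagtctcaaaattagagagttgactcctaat
Il1rn: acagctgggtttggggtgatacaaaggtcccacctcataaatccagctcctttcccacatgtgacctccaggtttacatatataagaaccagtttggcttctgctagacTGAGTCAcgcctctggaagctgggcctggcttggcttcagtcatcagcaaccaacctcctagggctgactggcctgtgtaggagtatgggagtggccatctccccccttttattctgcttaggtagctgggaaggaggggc
Il7r: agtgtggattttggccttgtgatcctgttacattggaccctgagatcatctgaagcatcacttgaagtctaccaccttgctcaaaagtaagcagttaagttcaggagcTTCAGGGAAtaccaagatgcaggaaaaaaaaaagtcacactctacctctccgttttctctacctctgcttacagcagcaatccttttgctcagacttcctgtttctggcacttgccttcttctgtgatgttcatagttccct
Il33 first start: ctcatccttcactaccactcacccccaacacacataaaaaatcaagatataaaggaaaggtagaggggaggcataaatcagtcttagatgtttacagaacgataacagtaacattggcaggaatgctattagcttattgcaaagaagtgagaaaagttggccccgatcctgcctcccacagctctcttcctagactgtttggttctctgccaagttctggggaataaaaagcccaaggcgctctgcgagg
Il33 second start: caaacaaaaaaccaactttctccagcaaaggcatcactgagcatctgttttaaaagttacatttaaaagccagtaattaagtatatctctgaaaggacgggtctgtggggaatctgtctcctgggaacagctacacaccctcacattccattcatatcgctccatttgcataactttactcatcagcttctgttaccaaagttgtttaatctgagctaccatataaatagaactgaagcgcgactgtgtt

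In the Il6 window the capitals mark an AP-1 match that begins 249 bases before the start and a kappaB match that begins 44 bases before it. The Il1rn window shown holds an AP-1 match 141 bases before the start, while the windows of 2 further starts of the gene (chr2:24345041-24345290 and chr2:24345121-24345370) held no match, and the Il7r window a STAT match 142 bases before it. Neither Il33 window held any of these letter patterns. Among 32851 windows of this length over all genes, 0.356% held the kappaB letters, 6.75% the AP-1 letters and 7.02% the STAT letters. A window was found for 66 of the 83 members, with 81 windows in all, of which 2, 14 and 9 held them. The 21 windows of called members held them in 1, 2 and 1 cases and the 30 windows of members tested but not called in 1, 5 and 3 cases. The windows to show were chosen after the matches were seen. A letter match is a description of the DNA and not a bound site.

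Among the ligands, 5 of the 16 tested were called higher and 1 lower. Il33, a nuclear alarm signal of the IL-1 family (chr19:29925114-29960718), was at 2.74, 3.40, 2.85 and 3.19 FPKM in control 1 to 4 and at 12.1, 10.7, 14.6 and 12.7 FPKM in ANG II 1 to 4. Every ANG II library was above every control library, and the spread within each group was small against the gap. The mean rose from 3.05 ± 0.301 to 12.5 ± 1.60 FPKM (SD, n = 4 each), a 4.11-fold difference, with a log2 fold change of 1.74 (SE 0.104, adjusted p = 5.49e-06). Il1b, the secreted IL-1 that caspase-1 cuts into its active form (chr2:129364570-129371139), was at 4.71, 1.19, 2.24 and 1.78 FPKM in control and at 3.67, 4.58, 8.76 and 19.2 FPKM in ANG II. The groups overlapped, since control 1 was above ANG II 1 and ANG II 2, and ANG II 4 stood far above the rest. The log2 fold change of Il1b was 1.38 (SE 0.446, adjusted p = 0.0383), and without ANG II 4 it was 0.96 with an adjusted p of 0.0681. Leaving out control 2, control 3, control 4 or ANG II 3 also ended its call, with adjusted p between 0.0765 and 0.0942, as did each of 3 rescalings (0.0618 to 0.107).

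Il18, the further caspase-1 product of the family (chr9:50554827-50581840), was at 0.439, 0.870, 0.230 and 0.665 FPKM in control and at 1.68, 1.20, 1.76 and 1.59 FPKM in ANG II. The groups were apart, and the log2 fold change was 0.73 (SE 0.146, adjusted p = 0.00383). These values rested on 26 control and 76 ANG II fragments in all. Il1a, the membrane-bound relative, had at most 6 fragments in a library and was not tested.

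Il6 (chr5:30013114-30019981), the acute-phase cytokine that acts through gp130, was nearly absent from control ventricles. It was at 0.217, 0, 0 and 0.0513 FPKM in control 1 to 4 and at 1.55, 1.38, 1.09 and 0.540 FPKM in ANG II 1 to 4, which corresponds to 5 control fragments and 90 ANG II fragments. Every ANG II library was above every control library. Per unit of depth the fragment ratio was 17.6, with an exact 95% interval of 7.28 to 55.6 that covers counting error only. Of the 5 control fragments 4 were in control 1, and without it the ratio was 67.2 (11.8 to 2685), an alternative chosen after seeing the data. The limma log2 fold change was 0.98 (SE 0.159, adjusted p = 0.00121). This log2 fold change is on the FPKM + 1 scale, which understates the change of low genes. Il11, a gp130 cytokine known from fibroblasts, had 8 control and 30 ANG II fragments, and its log2 fold change of 0.31 did not pass (adjusted p = 0.0572). Il12b, a chain shared by IL-12 and IL-23, had 4 fragments, all in control 1, and 23 in ANG II and did not pass either (0.21, adjusted p = 0.0841). Both were called higher when the fragments recovered from the values were tested with voom, with adjusted p of 0.0495 and 0.00709. Il11 and Il12b were chosen for mention after their values were seen.

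Il34, a ligand of the macrophage growth factor receptor Csf1r (chr8:110741829-110805924), was at 2.63, 2.05, 2.23 and 2.22 FPKM in control and at 6.33, 5.70, 4.23 and 4.94 FPKM in ANG II. The 4 ANG II libraries were all higher, with a log2 fold change of 0.93 (SE 0.122, adjusted p = 0.000374). Its receptor Csf1r rose from 26.0 ± 1.46 to 60.5 ± 6.69 FPKM (1.18, adjusted p = 1.20e-05), and it is also 1 of the 6 macrophage markers. Csf1, the better known ligand of the same receptor, was at 30.2 ± 3.69 and 32.7 ± 1.34 FPKM and did not pass (0.12, adjusted p = 0.337).

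Il15 (chr8:82331632-82403222), a common gamma chain cytokine that supports NK cells and memory T cells, was the most abundant ligand mRNA and the only member called lower. It was at 33.6, 26.5, 30.95 and 26.2 FPKM in control and at 19.1, 16.1, 27.5 and 18.1 FPKM in ANG II. ANG II 3 lay inside the control range, while the other 3 ANG II libraries were under all controls. The log2 fold change of Il15 was -0.54 (SE 0.149, adjusted p = 0.0195). The call was lost without control 1, control 3, ANG II 2 or ANG II 4, with log2 fold changes between -0.51 and -0.44 and adjusted p between 0.0499 and 0.0530. Under the 3 rescalings it was kept (-0.76 to -0.68, adjusted p = 0.0040 to 0.0069), as under voom (-0.57, adjusted p = 0.0086). Il15ra, the chain that presents Il15, was at 21.4 ± 2.91 and 18.2 ± 3.24 FPKM and did not pass (-0.23, adjusted p = 0.193). Under median-of-ratios scaling and quantile normalization it passed the adjusted p-value as lower (-0.45 and -0.46, adjusted p = 0.0172 and 0.0178).

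The makeup of the ligand mRNA shifted with these changes. Il15 held 62.0% ± 2.37 of the summed ligand FPKM among controls and 33.0% ± 5.74 after ANG II (SD, n = 4). Il33 held 6.55% ± 1.29 and 20.6% ± 1.61, and Il1b 5.04% ± 2.50 and 14.01% ± 9.44. These shares are descriptions without a test.

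Of the remaining ligands at 1 FPKM or more, none passed. Il17d was at 3.55 ± 0.594 FPKM in control and 4.15 ± 1.06 in ANG II (adjusted p = 0.460), and Il16, a T cell attractant, was at 2.43 ± 0.471 and 2.94 ± 0.509 (adjusted p = 0.296). Part of the Il16 exons, 17.4%, lies opposite Stard5 and 2310044K18Rik, and the use of strand in the counting was not given in the sources used here. Il4, the type 2 cytokine of T helper cells and mast cells, was at 2.44, 3.02, 3.09 and 1.61 FPKM in control and at 1.63, 3.54, 1.98 and 1.21 FPKM in ANG II. The groups overlapped widely (-0.23, adjusted p = 0.479, 95% interval -0.73 to 0.28). Mast cell markers summed to 6.06 to 9.84 FPKM in control and 7.57 to 8.02 FPKM in ANG II, with 0 of 5 called by limma and 0 of 5 at an unadjusted p under 0.05.

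**Figure D1:**
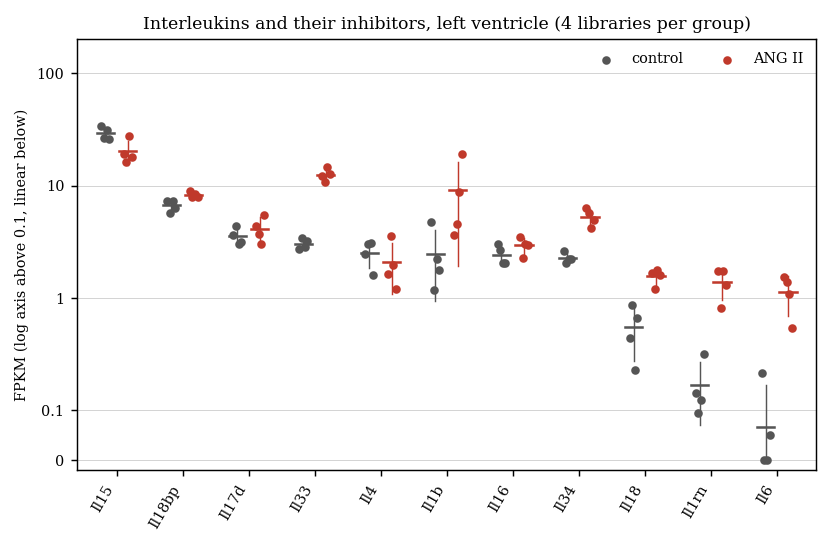
FPKM (vertical axis, logarithmic above 0.1 and linear below) of the ligands and inhibitors that reached a mean of 1 FPKM in a group, with 1 point per library, grey for control and red for ANG II, bars at the mean and vertical lines for the SD. Il33, Il34, Il18, Il1rn and Il6 show groups that are apart, while the Il15 and Il1b groups overlap.

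Both inhibitors of the IL-1 family that could be tested were higher in ANG II by adjusted p-value, and 1 was called. Il1rn, the receptor antagonist that occupies the IL-1 receptor without signalling (chr2:24336853-24351494), was at 0.143, 0.0945, 0.125 and 0.316 FPKM in control and at 1.73, 0.822, 1.73 and 1.30 FPKM in ANG II. All 4 ANG II libraries were above all controls, with 15 control and 125 ANG II fragments, a ratio per depth of 8.16 (exact 95% interval 4.76 to 15.02) and a log2 fold change of 1.02 (SE 0.144, adjusted p = 0.000583). Il18bp, the soluble protein that binds Il18, was at 7.24, 5.75, 7.32 and 6.36 FPKM in control and at 8.97, 7.86, 8.47 and 7.85 FPKM in ANG II. The groups did not overlap, but the log2 fold change of 0.28 (adjusted p = 0.0399) was short of the fold needed for a call, and under quantile normalization it was -0.01.

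Among the receptors, 15 of the 30 tested were called higher and none lower by limma. With the adjusted p-value alone, 18 receptors were higher and 0 lower, and 25 of all 48 members were higher and 1 lower, where 33.3% of all genes tested passed in either direction. At an unadjusted p under 0.05, 0 receptors were lower, and voom called 0 lower. After rescaling, some receptors passed the adjusted p-value as lower, though none of those with a group mean of 1 FPKM or more did so with the fold needed for a call: Il10rb under all 3 rescalings, Il15ra under 2 and Il11ra1 under 1. ANG II libraries were all above all controls for 17 receptors and for 25 of the 48 members, which compares with 28.7% of all genes tested. The reverse, all ANG II libraries under all controls, occurred for 0 members and for 5.06% of all genes tested. The median log2 fold change was 0.53 over the 30 receptors and 0.22 over the 16 ligands. Both medians are on the FPKM + 1 scale, which understates the change of low genes. Of the tested genes, 23 of the 30 receptors and 9 of the 16 ligands reached 1 FPKM in a group. The difference between the roles was not tested. The calls of 7 receptors were lost under 1 or more rescalings of the libraries: Il17rc, Il17rd, Il1r1, Il6ra, Il1rap, Il27ra and Il2rg.

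Il4ra, the chain shared by the Il4 and Il13 receptors (chr7:125552120-125579474), had the highest log2 fold change among the receptors on the FPKM + 1 scale, while by the fold of the means Il7r (5.83) and other low receptors were above it. It was at 7.53, 8.46, 7.83 and 8.93 FPKM in control and at 25.2, 18.3, 21.5 and 21.5 FPKM in ANG II, with every ANG II library above 2 times the highest control. The mean rose 2.65-fold, from 8.19 ± 0.632 to 21.7 ± 2.82 FPKM (log2 fold change 1.30, SE 0.0962, adjusted p = 1.70e-05). Of its exons, 9.51% lie opposite another gene model, Gm44876. Il13ra1, the chain that joins Il4ra to bind Il13, was at 16.6, 21.01, 17.03 and 17.7 FPKM in control and at 25.3, 23.8, 25.4 and 20.8 FPKM in ANG II. ANG II 4 lay just under control 2, and the log2 fold change of 0.38 (adjusted p = 0.00908) was too small for a call. Under the 3 rescalings its adjusted p was 0.0767 to 0.285. The decoy chain Il13ra2 had at most 2 fragments in a library.

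Il2rg, the common gamma chain (chrX:101264378-101268255), was at 2.53, 1.71, 2.26 and 1.89 FPKM in control and at 3.11, 3.68, 5.91 and 4.03 FPKM in ANG II. The groups were apart (0.72, SE 0.165, adjusted p = 0.00761), although 30.5% of its exons are shared with an overlapping model on the same strand, Gm20489. Il21r, which pairs with it to bind Il21, was at 1.64, 0.476, 1.04 and 0.455 FPKM in control and at 3.12, 2.36, 3.22 and 3.86 FPKM in ANG II (1.16, SE 0.203, adjusted p = 0.00193). Il7r, the receptor of a lymphocyte survival factor, was at 0.309, 0.214, 0.0808 and 0.146 FPKM in control and at 1.00, 0.783, 1.33 and 1.26 FPKM in ANG II (0.81, SE 0.116, adjusted p = 0.000613). For both, every ANG II library was above every control, and control 1 was the highest control. Il2ra (1.403 ± 0.171 and 1.23 ± 0.515 FPKM, adjusted p = 0.552) and Il2rb (0.608 ± 0.457 and 1.16 ± 0.474 FPKM, adjusted p = 0.156), the alpha chain of the Il2 receptor and the signalling chain that the Il2 and Il15 receptors share, did not pass. Il2rb ran from 0.107 to 1.11 FPKM within the control group, and its groups overlapped.

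In the IL-1 receptor family, 4 of the 7 tested were called higher. Il1r1, the signalling receptor of Il1b (chr1:40225080-40317257), was at 6.399, 7.24, 6.41 and 7.44 FPKM in control and at 11.8, 9.52, 11.2 and 12.5 FPKM in ANG II (0.63, SE 0.0940, adjusted p = 0.000736). Il1rap, the accessory chain that the receptors of Il1, Il33 and Il36 share, was at 1.93, 1.67, 1.30 and 2.20 FPKM in control and at 3.69, 3.79, 3.81 and 3.41 FPKM in ANG II (0.76, SE 0.118, adjusted p = 0.000952). Il1rl2, the Il36 receptor, was at 0.939, 1.504, 0.771 and 1.04 FPKM in control and at 2.95, 2.83, 2.72 and 2.27 FPKM in ANG II (0.85, SE 0.129, adjusted p = 0.000865). These 3 receptors had groups that were well apart.

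Il1rl1 (ST2), the receptor of Il33, was measured but did not pass. It was at 0.900, 1.03, 0.413 and 0.560 FPKM in control and at 0.655, 0.751, 0.838 and 0.729 FPKM in ANG II, with all ANG II values inside the control range. Its log2 fold change was 0.03 with a 95% interval of -0.26 to 0.32 (adjusted p = 0.890), on 127 control and 135 ANG II fragments. Il1rl1 was chosen for mention after its values were seen. Il18rap, the signalling chain for Il18, was at 0.442, 0.175, 0.128 and 0.250 FPKM in control and at 1.52, 0.881, 0.986 and 1.07 FPKM in ANG II (0.76, SE 0.125, adjusted p = 0.00137). Its partner Il18r1, which binds Il18, was at 0.493, 0.190, 0.167 and 0.233 FPKM in control and at 0.575, 0.522, 0.891 and 0.620 FPKM in ANG II. The groups of both chains did not overlap. On the FPKM + 1 scale the Il18r1 difference was below the fold needed for a call (0.38, adjusted p = 0.0295). Il18r1 was called with a pseudocount of 0.1 (1.07, adjusted p = 0.0312) and under voom (1.34, adjusted p = 0.0117). Its adjusted p was 0.0568 to 0.116 under the rescalings and 0.0661 with replicate numbers as blocks. It was also above 0.05 when certain single libraries were left out.

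The gp130 receptors included the most abundant receptor mRNA of the set. Il6st was at 81.1, 79.8, 80.4 and 89.9 FPKM in control and at 93.2, 98.8, 90.3 and 107 FPKM in ANG II. The groups did not overlap, but control 4 came close to ANG II 3, and the log2 fold change of 0.23 (SE 0.0640, adjusted p = 0.0204) was not enough for a call. Under the 3 rescalings the Il6st value was 0.0022 to 0.083 (adjusted p = 0.419 to 0.988), and without control 1 it missed the threshold (0.22, adjusted p = 0.0504). Il6ra, the chain that binds Il6 (chr3:89864059-89913196), was at 1.52, 1.37, 1.37 and 1.75 FPKM in control and at 2.98, 2.16, 2.80 and 3.34 FPKM in ANG II (0.60, SE 0.122, adjusted p = 0.00407). Il27ra, which pairs with gp130 to bind Il27, was at 2.30, 1.95, 1.95 and 0.993 FPKM in control and at 3.10, 2.67, 4.31 and 3.80 FPKM in ANG II (0.69, SE 0.178, adjusted p = 0.0144). Both were called, and no ANG II library fell into the control range. Il11ra1, the Il11 receptor, was at 40.7 ± 3.87 and 41.3 ± 1.33 FPKM (0.03, 95% interval -0.13 to 0.18, adjusted p = 0.806), and median-of-ratios scaling turned this to -0.20 (adjusted p = 0.0470). Of its 50-base words, 46.3% (stretches of 50 bases along the transcript) also occur in other gene models (Gm13305 and Il11ra2), so reads could be split between them.

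Within the IL-17 receptor family 3 of 5 were called higher, while the classic ligands Il17a and Il17f were at or near 0. Il17ra, the chain common to these receptors (chr6:120463247-120487559), was at 1.41, 0.892, 0.854 and 1.13 FPKM in control and at 3.66, 2.90, 3.03 and 2.82 FPKM in ANG II (0.99, SE 0.122, adjusted p = 0.000263). Il17rc, its partner for Il17a, was at 7.28, 5.73, 6.13 and 5.71 FPKM in control and at 10.6, 9.90, 9.76 and 9.71 FPKM in ANG II (0.61, SE 0.0865, adjusted p = 0.000569). Il17rd, also known as an inhibitor of fibroblast growth factor signalling, was at 2.33, 3.82, 2.84 and 3.17 FPKM in control and at 5.81, 5.38, 4.48 and 5.58 FPKM in ANG II (0.65, SE 0.129, adjusted p = 0.00370). All 3 had groups that were apart, and Il17rb and Il17re were at most 0.324 FPKM in any library.

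Il10ra, the private chain of the Il10 receptor (chr9:45253837-45269149), was at 3.20, 1.55, 2.23 and 2.15 FPKM in control and at 6.85, 5.39, 6.79 and 8.89 FPKM in ANG II (1.29, SE 0.172, adjusted p = 0.000412). Its shared partner Il10rb was at 38.5, 38.3, 36.4 and 34.5 FPKM in control and at 31.6, 33.4, 36.6 and 34.9 FPKM in ANG II and did not pass (-0.11, adjusted p = 0.197). Under the 3 rescalings its log2 fold change was -0.33 to -0.25, past the adjusted p-value (0.0025 to 0.0108) but not the fold. The Il10ra groups were apart at a low level, while the Il10rb groups overlapped at a high level, and the difference between the chains was not tested. Of the 50-base words of Il10rb, 13.9% also occur in other gene models (Gm21970, Olfr676 and Nfat5). Il20rb was at 1.16 ± 0.148 and 1.61 ± 0.462 FPKM and did not pass (0.26, adjusted p = 0.200). Il3ra, the Il3 receptor chain that works with Csf2rb, was at 3.34, 1.43, 1.59 and 1.61 FPKM in control and at 4.02, 3.99, 5.06 and 5.18 FPKM in ANG II. Control 1 stood apart from its group here, and the call was made with it (0.93, SE 0.185, adjusted p = 0.00381) and without it (1.12, adjusted p = 0.000319).

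**Figure D2:**
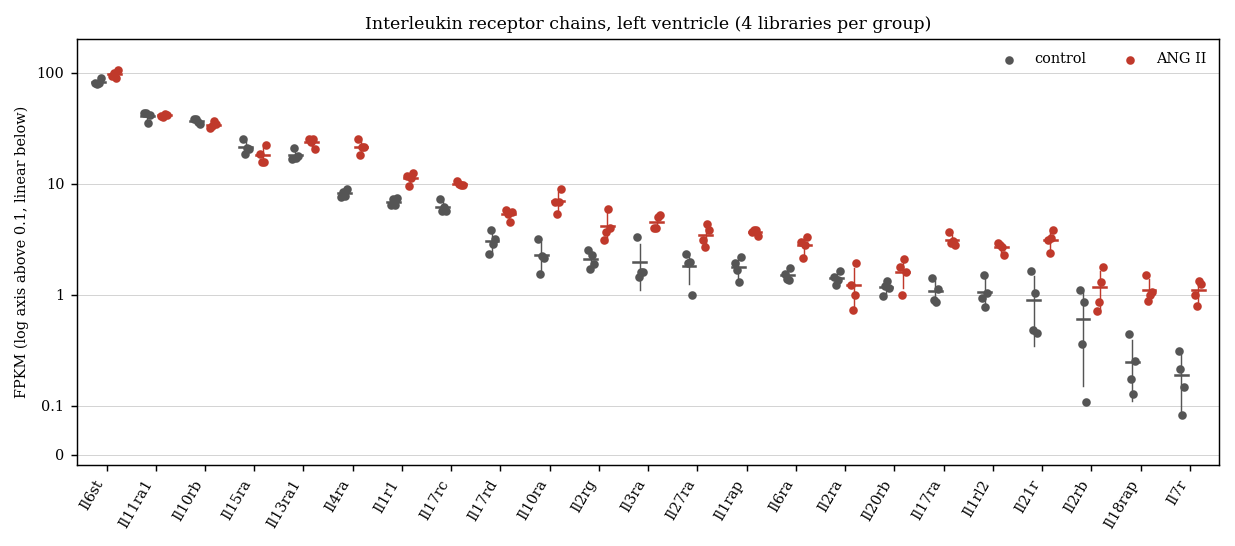
FPKM of the receptors that reached a mean of 1 FPKM in a group, with 1 point per library. The vertical axis is logarithmic above 0.1 and linear below. Grey is control and red is ANG II, with bars at the mean and vertical lines for the SD. For Il11ra1 and Il10rb, which follow Il6st in abundance, the control and ANG II points overlap, and all 15 called receptors had a control mean under 10 FPKM.

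**Figure D3:**
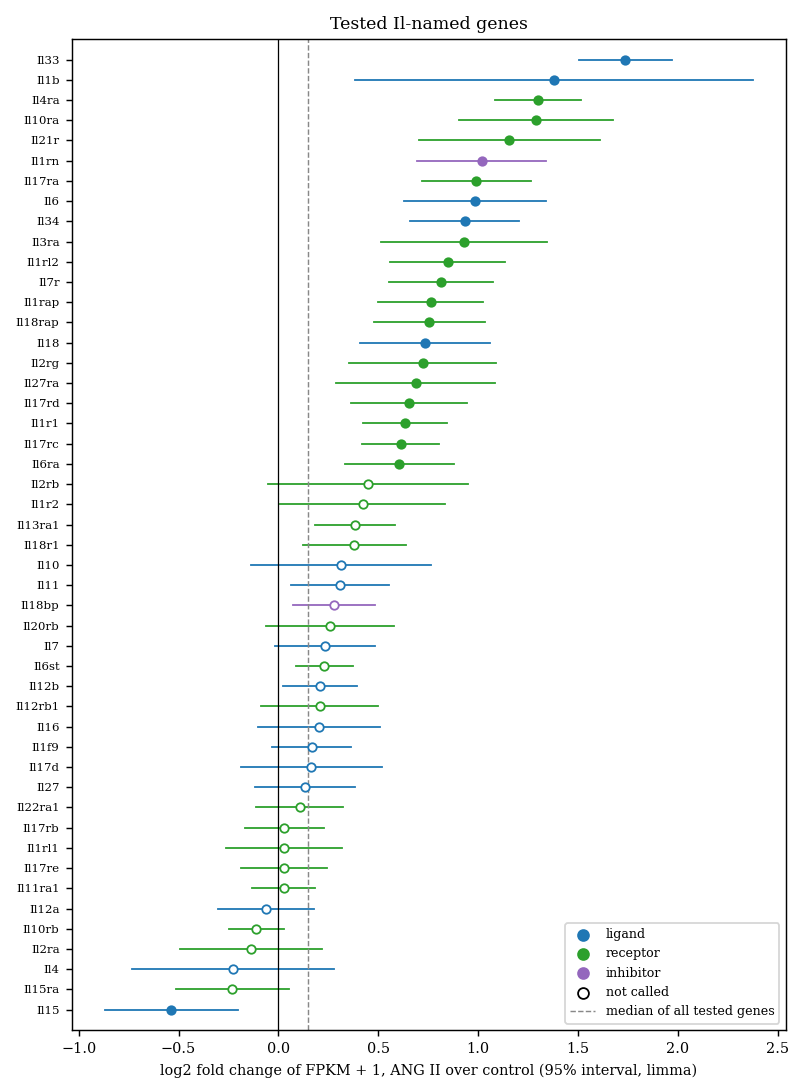
Log2 fold change of FPKM + 1, ANG II over control (horizontal axis), with its 95% limma interval for each of the 48 tested genes; filled points were called and the dashed line is the median over all genes tested, 0.15. Il33 is at the top with 1.74 and Il15 at the bottom with -0.54.

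By level, in FPKM, the order of the receptor mRNAs changed little at the top. Il6st held 33.9% of the summed receptor FPKM in control and 31.7% in ANG II, Il11ra1 16.6% and 13.5%, and Il10rb 15.1% and 11.1%. Il4ra held 3.36% and 7.06%. In control ventricles, Il11ra1 and Il10rb were neighbours in this order with overlapping libraries, as Il15ra and Il13ra1 were.

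Many members gave no signal. Listed at 0 in all 8 libraries were 17 genes: the ligands Il2, Il3, Il9, Il17a, Il17b, Il19, Il1f6, Il1f8, Il1f10, Il20, Il21, Il22 and Il31, the receptors Il11ra2, Il1rapl2 and Il20ra, and the inhibitor Il1f5. For Il11ra2, 100% of its 50-base words occur in other gene models. A further 11 had under 3 fragments in every library: Il5, Il13, Il17c, Il17f, Il24, Il25, Il13ra2, Il1rapl1, Il22ra2, Il23r and Il31ra. A count of 0 allows up to 3 fragments per library, so low expression was not detectable at this depth. Of the 14 tested members under 1 FPKM in both groups, 0 were called on the FPKM + 1 scale and 1, Il18r1, had an adjusted p under 0.05. Under voom on the recovered fragments, Il11, Il12b and Il18r1 of these were called. The 28 near-0 genes comprised 19 of the 37 ligands, 8 of the 41 receptors and 1 inhibitor. Several receptors were called higher while the mRNA of a ligand was listed at 0, among them Il21r (Il21 at 0), Il3ra (Il3 at 0) and Il17ra (Il17a at 0).

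**Figure D4:**
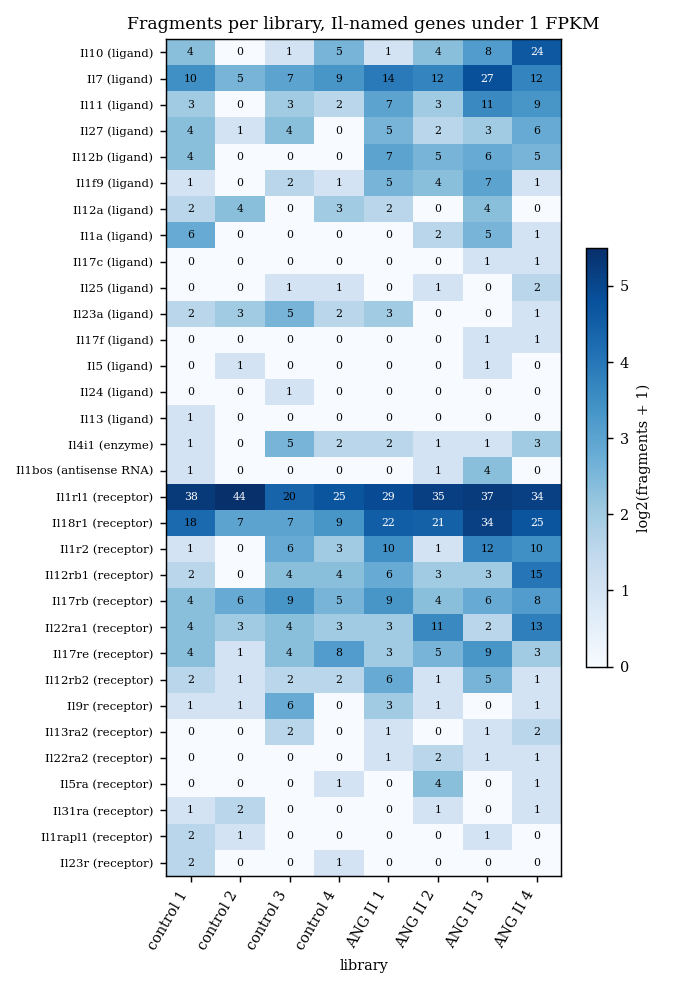
Fragments recovered from the FPKM steps for each Il-named gene under 1 FPKM in both groups and above 0 in a library, 1 column per library, coloured by log2(fragments + 1) with the number written in each cell. Il1rl1 has 20 to 44 fragments in every library, while most rows hold under 10.

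Genes that work with the interleukins but carry other names were read from 4 lists with 44 genes, of which 42 were tested, 18 called higher and 0 called lower by limma, with a median log2 fold change of 0.41. Over all genes tested, 14% were called higher. Under quantile normalization 8 were called higher and 2 lower, and under median-of-ratios scaling 11 higher and 1 lower. Stat5b passed the adjusted p-value as lower (-0.31, adjusted p = 0.00319). At an unadjusted p under 0.05, 2 were lower, Stat5b and Stat5a. Under voom 18 were called as well.

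Of 14 genes for IL-1 family processing and adaptors, 7 were called higher. Irak4, the kinase that starts signalling at the shared adaptor, rose from 2.23 ± 0.294 to 4.78 ± 0.873 FPKM (0.83, adjusted p = 0.000936). Casp4, the inflammatory caspase of the noncanonical pathway, rose from 4.54 ± 1.39 to 8.23 ± 1.35 FPKM (0.76, adjusted p = 0.00876), and Gsdmd, the pore through which Il1b and Il18 leave the cell, from 12.3 ± 2.75 to 20.3 ± 2.98 FPKM (0.69, adjusted p = 0.00675). Under quantile normalization the calls of Casp4 (0.46, adjusted p = 0.0707) and Gsdmd (0.45, adjusted p = 0.0413) were lost, and that of Gsdmd also under median-of-ratios scaling (0.48).

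Of 13 JAK-STAT genes tested, 3 were called higher, or 23.1%, not far from the 14% over all genes. Socs3, a feedback inhibitor that gp130 signals induce, rose from 4.23 ± 0.868 to 14.3 ± 3.41 FPKM (1.53, adjusted p = 0.000178). Tyk2 (0.60, adjusted p = 0.00122) and Jak3 (0.51, adjusted p = 0.00141), kinases of the receptor chains above, were the other called members. Both lost the call under each of the 3 rescalings (Tyk2 0.31 to 0.48, Jak3 0.26 to 0.38), and Jak3 also without control 4 (0.44) or ANG II 1 (0.48).

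Of 7 genes of IL-17 signalling, 3 were called higher. These were Lcn2, an iron-sequestering protein (1.55 ± 0.344 and 6.54 ± 2.15 FPKM, 1.53, adjusted p = 0.000344), Nfkbiz, a nuclear cofactor of NF-kappaB (3.36 ± 0.586 and 7.26 ± 2.50 FPKM, 0.89, adjusted p = 0.00570), and Cxcl5, a neutrophil attractant (0.166 ± 0.0872 and 0.713 ± 0.116 FPKM, 0.56, adjusted p = 0.00187). Cxcl5 fell short of the fold under median-of-ratios scaling (0.49) and quantile normalization (0.44).

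Of 8 tested partner genes with other names, 5 were called higher. Csf2rb, the shared beta chain that Il3ra uses, rose from 1.68 ± 0.556 to 5.85 ± 1.71 FPKM (1.34, adjusted p = 0.00122), and its close copy Csf2rb2 from 1.29 ± 0.352 to 4.98 ± 0.766 FPKM (1.39, adjusted p = 8.47e-05). Near-identical stretches of these paralogs could share reads, so their separate values are uncertain.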

How the data were processed

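The 8 libraries came from left ventricles of control and ANG II mice, 4 per group. The authors deposited FPKM values, 1 column per library with no pooling. The submitters' processing notes name HISAT, Bowtie2 and RSEM, without versions or roles, and the genome build, annotation and use of strand were not given in the sources used here. Fragments were recovered from the steps of the FPKM values with transcript lengths of GENCODE M21 (GRCm38, 55141 of 55679 gene IDs found), and 97.9% to 99.5% of the values under 60 fragments were whole within 0.1. Positions of genes are from the same annotation.

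Members were the rows whose symbol starts with Il and a digit. Values were compared as log2(FPKM + 1) with limma 3.58.1 under R 4.3.3 (linear fit and moderated variance with a trend, no covariate), over the genes whose mean reached 0.1 FPKM. P-values were two-sided, with Benjamini-Hochberg adjustment over 19364 genes, and called genes had an adjusted p under 0.05 and an absolute log2 fold change above 0.5. Exact intervals of fragment ratios and floors of 3 fragments cover counting error only. The script was tested on simulated data. The members and the gene lists were chosen with earlier results of these data known. Named were all members with an adjusted p under 0.05 or a group mean of at least 1 FPKM, near-0 members as names, and up to 3 called genes per list by size of the fold. The values of 1 partner gene are not reported here. Alternatives were other pseudocounts, filters, scalings and thresholds, voom on recovered fragments, a replicate block and leaving out each library. The study calls its replicates biological, while the labels only number the samples of each group, so p-values measure the spread between these samples. The paper's further samples were not analysed here.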

Additional observations from a re-analysis of the deposited data

Results flagged for a closer look

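Dixon's test at the 95% critical value for 4 samples was applied to 70 groups of the members, and 2 stood out, where chance gives about 1 in 20 groups. Il6st was at 89.9 FPKM in control 4, against 79.8 to 81.1 FPKM in the other controls. Il3ra was at 3.34 FPKM in control 1, against 1.43 to 1.61 FPKM in the other controls, and control 1 also held the highest control sum of macrophage, T cell, NK cell and neutrophil markers. The part of these markers in the Il3ra value was not tested.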

How the results depend on the processing

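The count of called members was 22, of ligands 6, of receptors 15 and of companion genes 18. Under quantile normalization these were 14 members, 5 ligands, 8 receptors and 10 companion genes (8 higher, 2 lower). Over all genes 12.4% were called under this setting. Under voom 25 members, 8 ligands, 16 receptors and 18 companion genes were called, beside 20.9% of all genes. With a pseudocount of 0.1 these were 23, 6, 16 and 18, beside 19.7%. An absolute log2 fold change above 1 left 6 members, 2 ligands, 3 receptors and 6 companion genes. The share of all genes beyond that threshold was not computed. Leaving out each library gave 20 to 22, 4 to 6, 15 to 16 and 17 to 20. The control and ANG II samples share replicate numbers only (correlations of their deviations between -0.032 and 0.062, and 1 of 4 controls matched its own number best). With the replicate block, 21 members, 5 ligands, 15 receptors and 18 companion genes were called, Il1b being lost. All genes tested had a median log2 fold change of 0.15, with 2708 called higher and 273 lower. Median-of-ratios scaling moved this to 0.0025 (1671 and 804) and quantile normalization to -0.044 (1413 and 986). These log2 fold changes turned: Il18bp to -0.014 under quantile normalization, Il17d to -0.017 under median-of-ratios and -0.15 under quantile normalization, Il16 to -0.12 under quantile normalization, and Il11ra1 to -0.20, -0.15 and -0.12 under median-of-ratios, quantile normalization and a common total, and to -0.042 without control 3 (-0.042 to 0.057 over the libraries left out). Of the 22 called members, 13 kept the call under every one of the 17 refits (thresholds as in the report) that gave them a value and 9 lost it at least once. Il1rn, Il6, Il18rap and Il7r were not tested with a mean of at least 1 FPKM. The 9 were Il15, Il1b, Il17rc, Il17rd, Il1r1, Il6ra, Il1rap, Il27ra and Il2rg. Among the 17 refits, the last 7 lost it only under scaling alternatives. With an absolute log2 fold change above 1, 16 of the 22 lost it. Of the companion genes named, Casp4, Gsdmd, Cxcl5, Tyk2 and Jak3 lost theirs under rescaling. The cause was not tested. Depth limits the members with few fragments.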

Other observations

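Some members with few fragments had values that were not given above, although Il10, Il7 and Il1r2 were among the 48 tested. They were chosen for mention after their values were seen. Il10, an anti-inflammatory cytokine, had 10 control and 37 ANG II fragments, of which 24 were in ANG II 4, and the log2 fold change of 0.31 did not pass (limma, adjusted p = 0.269). Il7, the ligand of Il7r, had 31 and 65 fragments with groups that did not overlap (0.23, adjusted p = 0.142). Il1r2, the decoy receptor of Il1b, had 10 and 33 fragments with overlapping groups (0.42, adjusted p = 0.110). Il23a, a chain of IL-23, had 12 and 4 fragments and was below the level tested.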
